A study of Mus musculus with 8 samples.

Results

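The genes described here are 10 receptors and ligands of cell guidance: the plexins Plxnd1, Plxnb2, Plxnc1 and Plxna1, the semaphorins Sema4a, Sema4b, Sema4d and Sema7a, the coreceptor Nrp1 and the SLIT receptor Robo1. They were taken by symbol from probe sets annotated with exactly 1 gene, using the brightest probe set where a gene had more than 1. All 10 were found, out of 22180 genes with such a probe set. Of them 5 fell in the knockout and 0 rose, where 8.53% of all tested genes fell and 4.45% rose. The measurement is an array of total RNA from CD4 single-positive (CD4SP) thymocytes, T cells of the thymus that have lost CD8 after selection. The cells were sorted from thymi of mice with a C57BL/6 strain background. One group of 4 arrays is WT. The other 4 arrays are Pggt1b_KO (KO below), a knockout of Pggt1b, which encodes the catalytic subunit of the enzyme that attaches geranylgeranyl lipids to small GTPases. Not given in the sources used here are the mice's age, the deleted part of the gene and the cells that lost it. No label states that each array holds another animal, and the p-values therefore measure the spread between samples alone, which may be technical. Replicate numbers were given here, in the order in which the samples of each genotype are listed, and are not from the labels.

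Semaphorins are secreted, membrane-spanning or lipid-anchored proteins that steer moving cells, and plexins are their main receptors. The cytoplasmic part of a plexin switches off Ras-family and Rap GTPases, which changes adhesion and the actin cytoskeleton. Neuropilins lack such a signalling part and serve as coreceptors, mainly for secreted class 3 semaphorins, while ROBO receptors bind the secreted SLIT proteins. In the thymus, PLXND1 is known for binding SEMA3E and for the movement of selected thymocytes from cortex to medulla.

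Values are log2 intensities, so a difference of 1 is a doubling, and changes are measured within a probe set. Levels of different probe sets are set side by side only to show how close a gene lies to background, since probes differ in brightness at the same amount of RNA. Array medians lay between 5.52 and 5.58 in WT and between 5.57 and 5.59 in KO. Correlations across tested genes ran from 0.990 to 0.995 within a genotype and from 0.985 to 0.990 between genotypes. The intensity filter was 5.56, which is the median over the probe sets of their mean on 8 arrays. Genes that reached it (11585) were tested and the others are called near background. A call means an adjusted p under 0.05 (limma with Benjamini-Hochberg adjustment over the tested genes). Pggt1b itself stood at 8.35 ± 0.040 in WT and 7.75 ± 0.15 in KO (SD, n = 4 each; adjusted p = 0.00141), and whether its probes lie in the deleted part is unknown here. Of 10 CD4 T cell markers on the array all passed the intensity filter and none was called, whereas 6 of 7 B cell markers lay near background. All 10 CD4 T cell markers had a difference below 0, as did 59.1% of all tested genes. The mean level of the CD4 list spanned 11.21 to 11.24 in WT and 11.14 to 11.18 in KO. The heat-shock genes Hspa1a and Hspa1b varied widely between arrays of a genotype. Their mean spanned 5.27 to 8.58 over the WT arrays, and in KO it went from 4.57 (replicate 3) to 10.34 (replicate 1).

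For orientation, the sequences upstream of a transcript start are shown for Sema4a and Sema4b, neighbours in class 4 whose changes were alike in size. They are from RefSeq (GRCm38.p6), which held windows for 9 of the 10 genes, and each stretch lies before the outermost start of its gene. Capitals mark a KLF box (GGGTG or its complement CACCC), searched because Klf2, a factor of thymic exit, was higher in KO. The Sema4a stretch is chr3:88461183-88461432 on the minus strand and that of Sema4b is chr7:80186620-80186869 on the plus strand, both written towards the transcript start.
Sema4a: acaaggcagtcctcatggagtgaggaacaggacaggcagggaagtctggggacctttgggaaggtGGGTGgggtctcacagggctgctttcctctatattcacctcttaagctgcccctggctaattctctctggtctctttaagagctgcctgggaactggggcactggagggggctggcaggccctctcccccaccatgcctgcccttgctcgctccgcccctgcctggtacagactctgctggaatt
Sema4b: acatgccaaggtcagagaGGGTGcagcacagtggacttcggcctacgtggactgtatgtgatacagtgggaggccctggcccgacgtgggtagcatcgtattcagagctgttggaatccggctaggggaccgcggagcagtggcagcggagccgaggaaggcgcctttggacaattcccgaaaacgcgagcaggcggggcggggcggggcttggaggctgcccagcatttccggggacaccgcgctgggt
Each holds 1 such box, which ends 181 bases before the start in Sema4a and 228 bases before it in Sema4b. A box of this kind stands in 52.0% of all 32851 upstream windows of 250 bases and in 13 of the 16 windows of these genes. The 16 windows come from 9 genes, some of which have several that can overlap, so they are not independent counts. Boxes stood before genes called lower and before genes not called. The NFAT core GGAAA was found in 14 of the 16 windows (55.6% of all), the E box CANNTG in 8 (66.2% of all) and the AP-1 motif TGANTCA in 1 (6.75% of all). The searches covered both strands, and the motifs can overlap. A match describes letters in a window and is not a measured binding site.

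Taken over the 10 genes, 5 were lower in KO and 0 higher, where 8.53% of all tested genes were lower and 4.45% higher. With each array centred on its median the calls over all tested genes split into 383 higher and 1321 lower, against 515 and 988 without it, and the same 5 of these 10 genes were lower. In the same 5 genes every KO array was under every WT array, and in 0 was it the other way round. Of all tested genes 13.5% showed the first, 6.79% the second and 20.3% either. The 10 differences had a median of -0.27, against -0.03 over all tested genes. Of the 10, 9 were below 0, where 59.1% of all tested genes were. The genes were chosen with earlier results of these data known, so these counts describe them and do not show that guidance genes differ from others. The arrays are bulk samples, in which fewer cells of a type and less RNA per cell cannot be told apart.

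**Figure D1:**
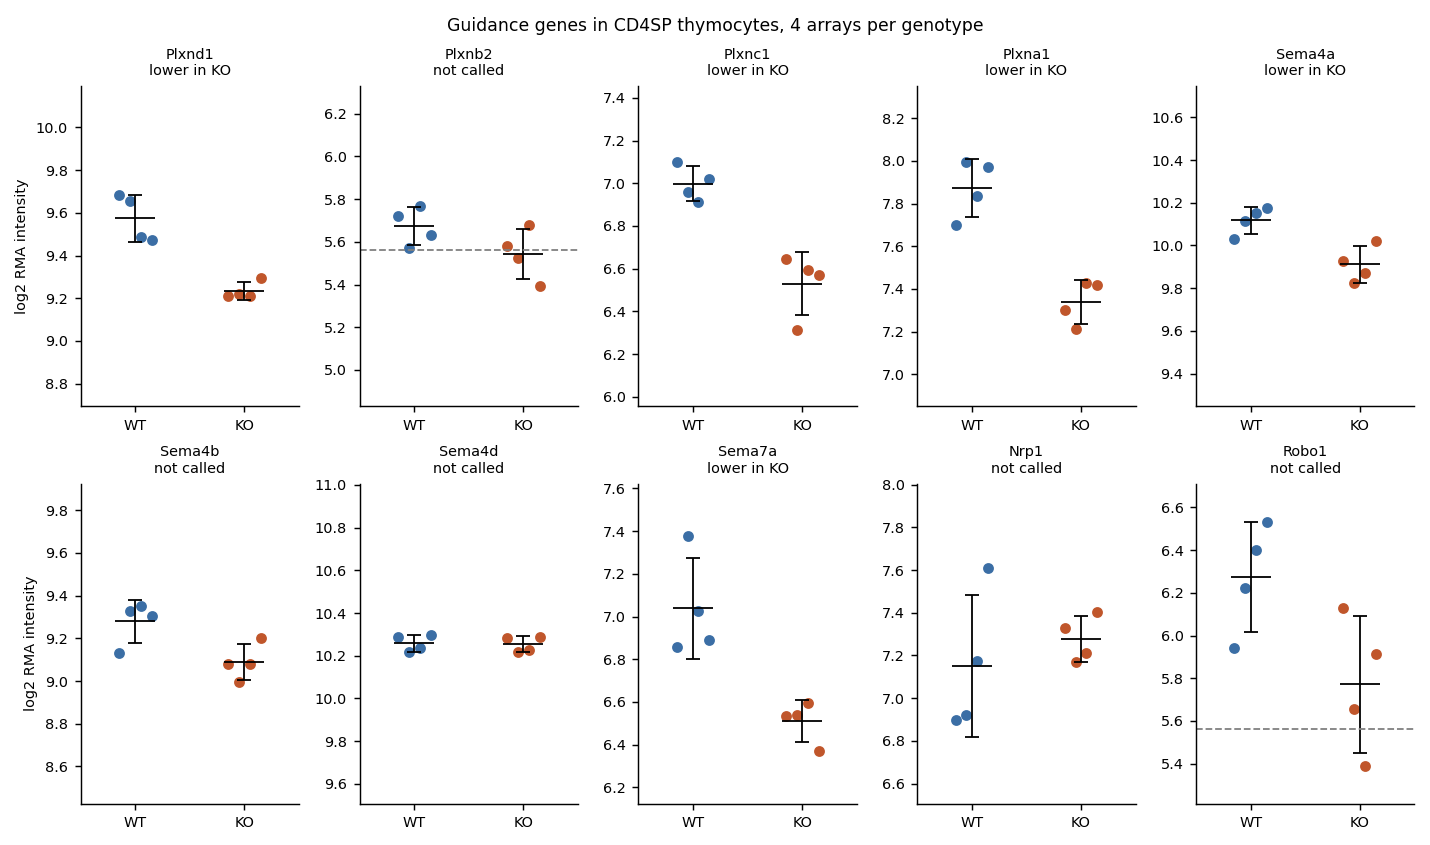
Log2 RMA intensity (vertical axes, each spanning the same 1.5 log2 units) of the 10 genes in 4 WT and 4 KO arrays, with 1 point per array, the mean and the SD as bars, and the intensity filter of 5.56 as a dashed line where it falls in range. In Plxnd1, Plxnc1, Plxna1, Sema4a and Sema7a the KO points lie below every WT point, and in Sema4d both genotypes lie between 10.22 and 10.30.

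Among the plexins 3 of 4 fell, beside 8.53% of all tested genes. Plxna1, which pairs with neuropilins in receptors for class 3 semaphorins, stood at 7.70, 7.99, 7.84 and 7.97 in WT and at 7.30, 7.21, 7.43 and 7.42 in KO. The KO arrays lay wholly under the WT range. The mean fell from 7.87 ± 0.14 to 7.34 ± 0.10 (SD, n = 4 each), a log2 difference of -0.53 ± 0.078 SE or 1.45-fold (limma, adjusted p = 0.00310). The second, dimmer probe set of Plxna1 did not separate the genotypes: its means were 6.04 in WT and 5.88 in KO, a difference of -0.16 (two-sided exact permutation p = 0.200). With the mean of both probe sets the call held, at a smaller difference of -0.35 (limma, adjusted p = 0.0152).

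Plxnc1, a receptor for SEMA7A, stood at 7.10, 6.96, 6.91 and 7.02 in WT and at 6.65, 6.31, 6.59 and 6.57 in KO. KO replicate 2 was the lowest, and no KO array reached a WT value. The KO mean was 6.53 ± 0.15 (SD, n = 4) and the difference from WT -0.47 ± 0.078 SE or 1.38-fold (limma, adjusted p = 0.00563). It was the 1 plexin whose call held under every alternative tried, with an adjusted p of at most 0.0371.

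Plxnd1, the SEMA3E receptor, stood at 9.68, 9.66, 9.49 and 9.47 in WT and at 9.21, 9.22, 9.21 and 9.30 in KO. The KO arrays were tightly grouped and the WT arrays fell into a higher and a lower pair, both above KO. The difference was -0.34 ± 0.062 SE, from 9.57 ± 0.11 to 9.23 ± 0.041 (limma, adjusted p = 0.00847). Plxnb2, a receptor for class 4 semaphorins, lay at 5.67 ± 0.089 in WT and 5.54 ± 0.12 in KO. This is just above the intensity filter, with 2 KO arrays under it and overlapping genotypes (difference -0.13, 95% interval -0.29 to 0.03, limma adjusted p = 0.253).

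Of the 4 semaphorins 2 fell, Sema7a and Sema4a, beside 8.53% of all tested genes. Sema7a, a lipid-anchored ligand of PLXNC1 and of beta 1 integrin, stood at 6.86, 7.38, 7.03 and 6.89 in WT and at 6.53, 6.54, 6.60 and 6.37 in KO. WT replicate 2 was the highest, and the genotypes did not overlap. The mean fell from 7.04 ± 0.24 to 6.51 ± 0.098, by -0.53 ± 0.11 SE or 1.44-fold (limma, adjusted p = 0.0138). Without both WT replicates 2 and 3 the difference was -0.37 and its adjusted p was 0.0556. Ligand and receptor of the SEMA7A and PLXNC1 pair thus both stood lower in KO.

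Sema4a, a membrane semaphorin known as a costimulatory ligand of T cells, stood at 10.03, 10.12, 10.15 and 10.17 in WT and at 9.93, 9.82, 9.87 and 10.02 in KO. The highest KO array, replicate 4, lay just under the lowest WT array, replicate 1. The fall of 1.15-fold (-0.21 ± 0.058 SE, from 10.12 ± 0.064 to 9.91 ± 0.085) passed narrowly (limma, adjusted p = 0.0448). Leaving out any 1 of WT replicates 2, 3 and 4 or of KO replicates 1, 2 and 3 ended the call, at an adjusted p of up to 0.108. So did adding heat-shock expression to the fit (0.0769) and dropping the intensity filter (0.0974).

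Sema4b, another membrane semaphorin of class 4, had a difference of similar size that was not called. The WT arrays spanned 9.13 to 9.35 and the KO arrays 9.00 to 9.20, and they overlapped through WT replicate 1, the lowest of its group (difference -0.19 ± 0.066 SE, limma adjusted p = 0.0864). Without that array the adjusted p was 0.0333. Sema4d, the CD100 antigen, abundant on T cells and a ligand of plexins B, differed by -0.0035 (95% interval -0.11 to 0.10, limma adjusted p = 0.971). The WT arrays spanned 10.22 to 10.30 and the KO arrays 10.22 to 10.29, almost the same range.

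Nrp1, the coreceptor also known as a marker of thymus-derived regulatory T cells, was the 1 gene with a higher mean in KO. It stood at 6.90, 6.92, 7.17 and 7.61 in WT and at 7.33, 7.17, 7.21 and 7.40 in KO. The WT arrays were widely spread and enclosed all KO arrays (difference 0.13, 95% interval -0.19 to 0.44, limma adjusted p = 0.609). It moved with single arrays: the difference was 0.28 without WT replicate 4 (adjusted p = 0.0738), 0.04 without WT replicate 1 and 0.05 without WT replicate 2, and 0.08 without KO replicate 4. Of 10 tested regulatory T cell markers 9 had a difference below 0, where 59.1% of all tested genes did. Of these markers 4 were called lower, where 8.53% of all tested genes were. Among the 4, Gpr83 was called in 2 of the 8 fits that left out 1 array. Foxp3 went the other way, at 8.07 ± 0.20 in WT and 8.23 ± 0.31 in KO, and was not called.

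Robo1 stood at 5.94, 6.22, 6.40 and 6.53 in WT and at 6.13, 5.65, 5.39 and 5.91 in KO. The genotypes overlapped through WT replicate 1 and KO replicate 1, and KO replicate 3 lay under the intensity filter. The difference of -0.50 ± 0.17 SE was not called (limma, adjusted p = 0.0759). It was called without WT replicate 1 (adjusted p = 0.0419), without KO replicate 1 (0.0489) and once heat-shock expression was added to the fit (0.0224).

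**Figure D2:**
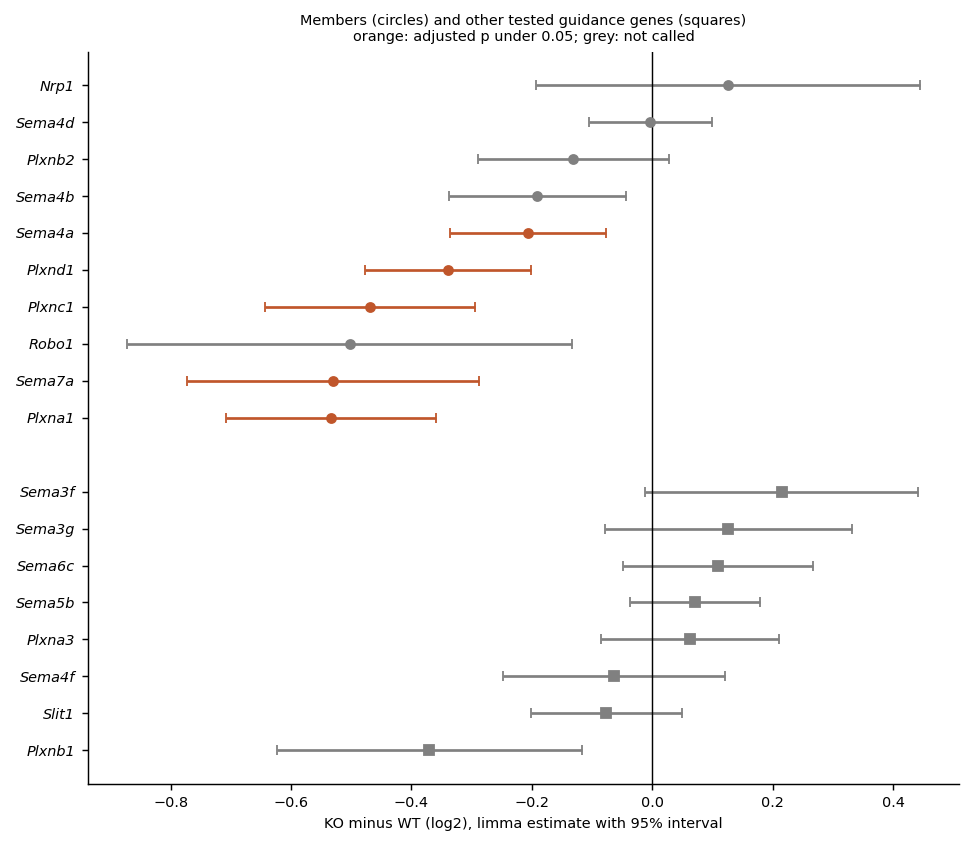
Difference KO minus WT on the log2 scale (horizontal axis) with its 95% interval from limma for the 10 genes (circles) and the 8 other tested guidance genes (squares), orange where called lower and grey where not called. Of the circles 5 are orange, from -0.53 in Plxna1 to -0.21 in Sema4a, and no square is.

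Whether the changes differed between genes of 1 role was tested in 12 pairs, by permuting the genotypes over the per-array difference of both genes. The arrays did not overlap in 3 pairs of semaphorins, each at a two-sided exact permutation p of 0.0286, the smallest that 4 against 4 allows. The change of Sema4d exceeded that of Sema7a by 0.53, that of Sema4b exceeded that of Sema7a by 0.34, and that of Sema4a minus that of Sema4d was -0.20. Among the plexins, Plxna1 and Plxnb2 differed in their change by 0.40 (exact permutation p = 0.0571). Adjusted over the 12 pairs, 0 passed, and the smallest adjusted p was 0.114. With 12 pairs, 7 would have to reach 0.0286 for any to pass, so the adjusted test could hardly pass in this design and leaves equal and unequal changes undecided.

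For each called gene, the tested genes with the most similar pattern were sought by the root mean square distance of values centred over the 8 arrays. Plxnd1 was nearest to Rfc5, Ift27 and Fundc1, at distances of 0.047, 0.048 and 0.051 log2. For Plxnc1 these were Irf4, Spsb1 and Slc16a6, at 0.062, 0.071 and 0.080. Irf4, a transcription factor induced by T cell receptor signals, had a difference of -0.56. Plxna1 was nearest to Fam111a, Efna4 and C1qtnf12 (0.049 to 0.059), Sema7a to Ppp1r16a, Edaradd and Rbm24 (0.072 to 0.083) and Sema4a to Vim, Mrpl51 and Ppp6r1 (0.029 to 0.031).

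Brightness was set beside 21 genes specific to other organs, such as albumin and cardiac myosin, whose means ran from 2.93 to 5.97 with a median of 4.54. Of these 18 lay under the intensity filter. Plxnb2, with a mean of 5.61, was exceeded by 2 of them, and Robo1, at 6.02, stood just above the brightest. Both passed the filter, but 2 KO arrays of Plxnb2 and 1 of Robo1 lay under it. The other 8 genes had means from 6.76 in Plxnc1 to 10.26 in Sema4d, above all 21.

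**Figure D3:**
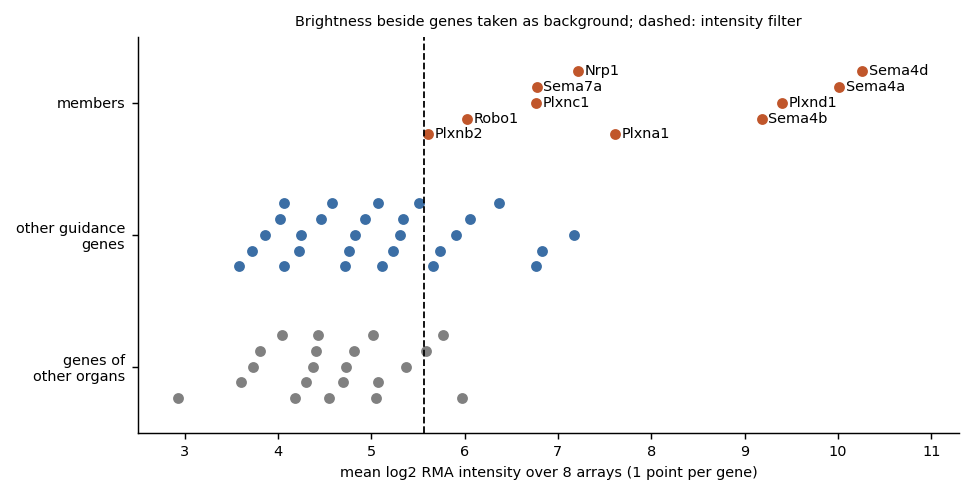
Mean log2 RMA intensity over 8 arrays (horizontal axis) with 1 point per gene for the 10 genes, the 28 other guidance genes and 21 genes of other organs, and the intensity filter of 5.56 as a dashed line. Plxnb2 lies within and Robo1 just above the range of the genes of other organs, and 23 of the 28 other guidance genes lie below the brightest of these.

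Of the remaining plexins, semaphorins, neuropilins, ROBO receptors and SLIT ligands, all 28 were on the array, 20 lay near background and 8 were tested. None of the 8 was called in the reported limma fit, though 1 or more of the alternative fits called 3 of the 28. Plxnb1, a receptor for SEMA4D, lay at 6.55 ± 0.22 in WT and 6.18 ± 0.16 in KO with overlapping arrays (difference -0.37, limma adjusted p = 0.0602). It was called without WT replicate 3 (adjusted p = 0.0257) and after centring or a second quantile normalization of the arrays (0.0415 and 0.0343). Sema3g, with a difference of 0.13, was also called without WT replicate 3 (adjusted p = 0.0466). The ligand Sema3e, partner of PLXND1, stood at 4.09 in WT and 4.03 in KO, and Sema3a, a ligand of NRP1, at 4.44 and 4.48, all near background. Of 7 class 3 semaphorins 5 were near background, as were 2 of 3 SLIT genes and the 3 other ROBO receptors. Nrp2, named after its values were seen, was near background too, at 5.53 ± 0.16 in WT and 4.92 ± 0.20 in KO. Its arrays did not overlap (two-sided exact permutation p = 0.0286), and its adjusted p was 0.0103 when limma was run with no intensity filter. Slit2, also near background and named after its values were seen, went the other way, at 4.64 in WT and 4.80 in KO. The arrays of Slit2 did not overlap either (two-sided exact permutation p = 0.0286), and its adjusted p from limma with no intensity filter was 0.145.

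Genes that act with plexins inside the cell mostly were not called. Of 24 tested partners 1 rose and 2 fell, a share of 12.5% beside 13.0% of all tested genes. Rap1gap2, which inactivates Rap GTPases as plexins do, fell from 6.92 ± 0.093 to 6.54 ± 0.11 (difference -0.38, limma adjusted p = 0.00923). The Rap1gap2 call held whichever single array was left out. It ended over all probe sets, without both KO replicates 1 and 2, and without both WT replicates 2 and 3. Farp1, an exchange factor of the plexin pathway, differed by -0.39 (adjusted p = 0.0485), a call lost without any single array other than KO replicate 1 (adjusted p up to 0.119). The Farp1 call also ended with no intensity filter, over all probe sets, with array weights, and with heat-shock expression or the sample number in the titles added. Without both KO replicates 1 and 2 or both WT replicates 2 and 3 it was lost as well. Rras2, of the R-Ras family on which plexins act, rose by 0.27 (adjusted p = 0.0320). Centring each array on its median ended this call, as did leaving out 1 of WT replicates 2 and 3 or of KO replicates 1 and 4 (up to 0.0880). The Rras2 call also ended with no intensity filter, over all probe sets, and with heat-shock expression or the sample number in the titles added. It was lost too without both KO replicates 1 and 2 or both WT replicates 2 and 3. Rras differed by 0.36 with overlapping arrays and was not called (limma adjusted p = 0.0608). The GTPases Rac1 and Rhoa, substrates of the targeted enzyme, differed by -0.02 and 0.02.

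Downstream of ROBO receptors 2 of 15 tested genes rose and 0 fell, a share of 13.3% called, close to the 13.0% of all tested genes. Srgap2, a GTPase-activating protein that binds ROBO, rose from 8.33 ± 0.091 to 8.66 ± 0.12 (difference 0.33, limma adjusted p = 0.0185), which did not hold without WT replicate 3 or KO replicate 1 (up to 0.0542). The Srgap2 call also ended over all probe sets, without both KO replicates 1 and 2, and without both WT replicates 2 and 3. Arhgap39, of the same function, rose by 0.23 (adjusted p = 0.0323), a call lost after centring each array on its median and when 1 of WT replicates 2, 3 and 4 or of KO replicates 1, 3 and 4 was left out (up to 0.0880). The Arhgap39 call was also lost with no intensity filter, over all probe sets and with heat-shock expression added. Removing both KO replicates 1 and 2 or both WT replicates 2 and 3 ended it too. Srgap2 and Arhgap39 both stood higher while Robo1 had a lower mean.

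Among 11 tested further receptors, coreceptors and sheddases of semaphorins 1 rose and 3 fell, where 4.45% of all tested genes rose and 8.53% fell. Mmp14, a membrane protease that can shed SEMA4D, fell most, at 6.92, 6.99, 6.78 and 6.65 in WT and 6.23, 6.33, 6.15 and 6.00 in KO. No KO array reached the WT range (difference -0.66 ± 0.090 SE, limma adjusted p = 0.00224). Itgb1, the beta 1 integrin that binds SEMA7A, fell from 9.16 ± 0.13 to 8.78 ± 0.028 (adjusted p = 0.00642). L1cam and Chl1, adhesion molecules that can join NRP1 in a receptor, went opposite ways. L1cam rose by 0.37 (adjusted p = 0.00830) and Chl1 fell by 0.31 (adjusted p = 0.0228, but up to 0.0620 when 1 of WT replicates 2 and 3 or of KO replicates 2 and 4 was left out). Without both KO replicates 1 and 2 the calls of Itgb1, L1cam and Chl1 ended, and without both WT replicates 2 and 3 those of L1cam and Chl1. The Chl1 call also ended over all probe sets and with heat-shock expression added. The sheddases Adam10 and Adam17 differed by -0.07 and -0.02.

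**Figure D4:**
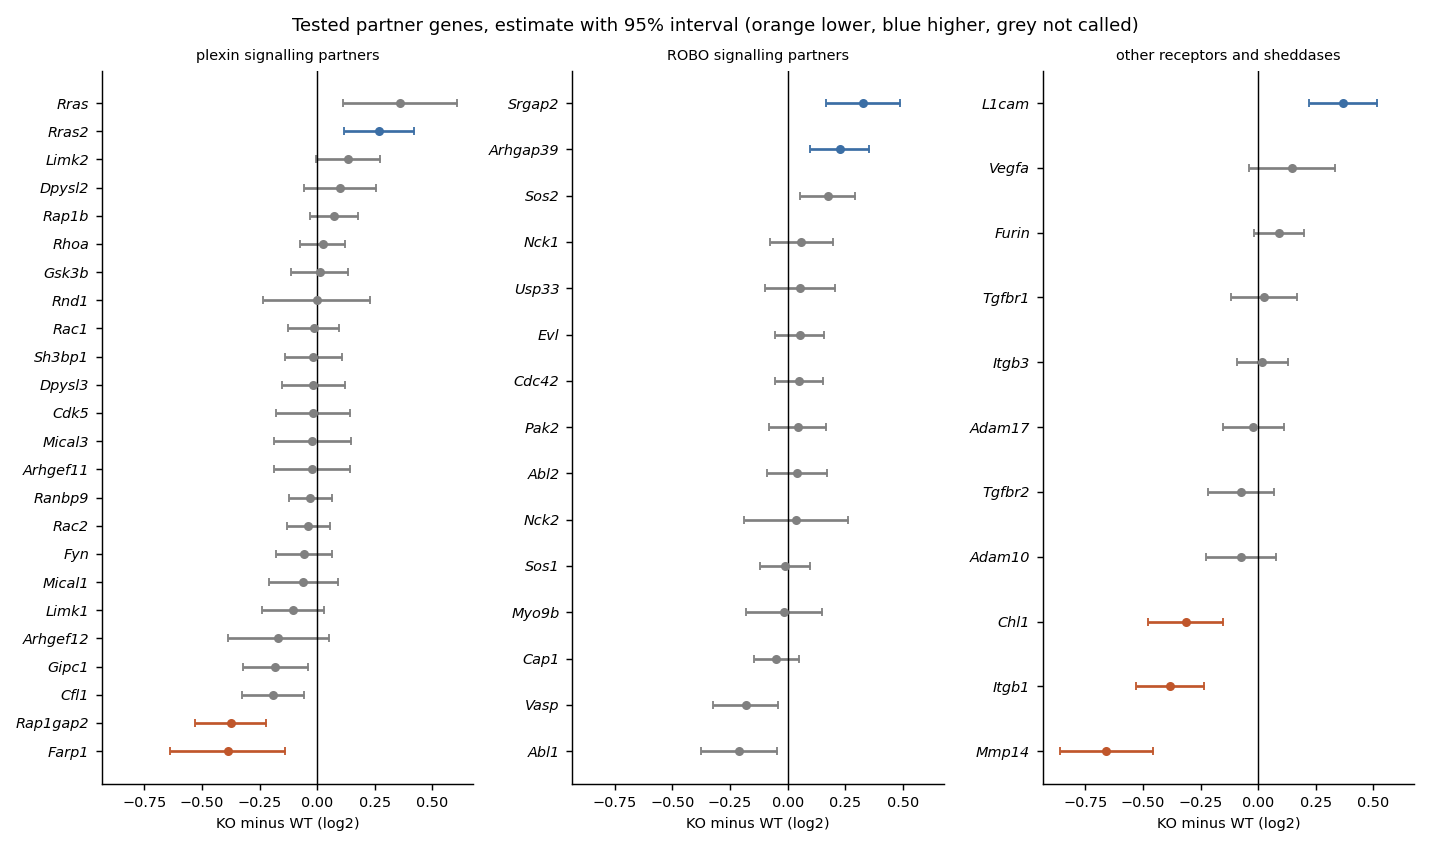
Difference KO minus WT on the log2 scale (horizontal axes) with its 95% interval from limma for the tested partner genes, blue where called higher, orange where called lower and grey where not called. The left panel holds 24 plexin partners, the middle panel 15 ROBO partners and the right panel 11 further receptors and sheddases, of which Mmp14 fell most.

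Mean levels of the thymocyte stage and regulatory T cell lists moved alongside, while those of the lists of other cells overlapped between the genotypes. Of 12 tested markers of recently selected thymocytes 8 fell and 0 rose, and of 12 markers of mature cells 8 rose and 0 fell. Beside these and the list counts that follow, 8.53% of all tested genes fell, 4.45% rose and 13.0% did either. The mean level of the first list spanned 10.34 to 10.52 in WT against 10.05 to 10.19 in KO, and that of the second 10.31 to 10.45 against 10.85 to 10.91. Cd24a, lost with maturation, fell by 0.75 (limma adjusted p = 0.00584) and Klf2 rose by 0.68 (adjusted p = 0.00206). Some of these calls depended on single arrays. Of the 8 fits that left out 1 array, Ccr4 and Nr4a3 were called in 2 each and Egr2 in 4. In the mature list Itgb7 was called in 4 of these fits and Gimap3 in 3, and Gimap3 was also lost after centring each array on its median. The other called genes of both lists held in all 8. Of 10 double-positive markers Cd8a and Bcl6 fell, with a list level of 8.21 to 8.40 in WT and 7.86 to 8.17 in KO. The Cd8a call was lost on leaving out 1 of WT replicates 2 and 3 or of KO replicates 2 and 4 (adjusted p up to 0.0893), and the Bcl6 call without WT replicate 2 (0.0504). Of 10 regulatory T cell markers 4 fell, Tnfrsf4 among them at -0.49, and none rose, with a list level of 8.47 to 8.62 in WT and 8.23 to 8.38 in KO. Of these calls that of Gpr83 held in 2 of the 8 fits that left out 1 array, and the others held in all 8. Natural killer and innate-like markers went both ways, 2 of 7 higher and 3 lower. Among the lower ones Zbtb16 was called in 3 of the 8 fits that left out 1 array. This list spanned 6.06 to 6.60 in WT and 6.32 to 6.41 in KO, and Klrb1c and Ncr1 lay near background. Myeloid and dendritic markers overlapped, at 5.73 to 5.95 in WT and 5.58 to 5.85 in KO. Of 9 tested 8 had a difference below 0, where 59.1% of all tested genes did, and the median was -0.09 against -0.03 over all tested genes. Cd86 alone was called, lower by 1.08, and Itgax, Csf1r and Siglech lay near background. Endothelial, stromal and epithelial markers stood at 5.69 to 5.75 in WT and 5.67 to 5.77 in KO. Of 5 tested Pecam1 was called higher, by 0.24 with arrays that did not overlap (limma, adjusted p = 0.0286), and the call was lost in 6 of the 8 fits that left out 1 array (adjusted p up to 0.0769). The part of these shifts in the changes of the guidance genes was not tested.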

How the data were processed

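Each sample of CD4SP thymocyte RNA was run on 1 Mouse Gene 2.0 ST array, per the labels. The authors deposited RMA values on the log2 scale, 1 for each probe set, and the submitters' processing notes name Affymetrix Expression Console 1.1. Build, annotation release and any filter: not given in the sources used.

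Probe sets (41345) took their names from the platform's annotation table, which may be out of date: 23521 had 1 symbol, 1814 several, and 16010 were unnamed. Each gene was represented by its brightest single-symbol probe set, and 10595 of 22180 genes fell under the intensity filter. The comparison of genotypes used lmFit and eBayes of limma 3.58.1 (R 4.3.3), two-sided, with genotype as the 1 term, and every adjusted p comes from a limma fit. The script was tested on simulated data. Exact permutation tests ran over the 8 arrays. The number of arrays limits the precision.

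The genes, lists and tests were chosen with earlier results of these data known. Named genes were the 10 members, Pggt1b, called genes of each guidance list (up to 4 by p), up to 3 called markers per list, and the 3 nearest genes by pattern; others are named for their role or as stated. Alternatives changed the filter, the probe set rule, scaling, weights, covariates, prior, threshold and the arrays used.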

Additional observations from a re-analysis of the deposited data

Results flagged for a closer look

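Plxnd1 in KO replicate 4 stood at 9.30 on the log2 scale, apart from the other 3 KO arrays, whose nearest value was 9.22. It was the 1 group of 4 arrays among 22 examined (10 guidance genes and Pggt1b in both genotypes) in which a single array stood this far from the rest of its group, where chance gives about 1 in 20. The array lay on the side of WT, whose lowest Plxnd1 value was 9.47.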

How the results depend on the processing

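The count of guidance genes called lower in KO, 5 in the reported fit, ranged from 4 to 7 when 1 array was left out, with 7 without WT replicate 1, and the count called higher was 0 in every alternative. It was 2 over all probe sets, named or not, 3 at an adjusted p under 0.01, 1 (Plxnc1) with KO replicates 1 and 2 both removed, and 2 with WT replicates 2 and 3 both removed. Other guidance genes called lower numbered 0 in the reported fit, and 1 with no intensity filter, over all probe sets, after a second quantile normalization, with each array centred on its median and with an intensity trend and robust prior. With 1 array left out, those called lower and those called higher each ranged from 0 to 1. Over all tested genes 515 were called higher and 988 lower. These counts were 325 and 254 over all probe sets, 206 and 240 at an adjusted p under 0.01, 136 and 122 with KO replicates 1 and 2 both removed, and 150 and 145 with WT replicates 2 and 3 both removed. They ranged from 302 to 496 higher and from 493 to 945 lower with 1 array left out. The count higher moved by over 1.5 times to 334 without WT replicate 3 and 302 without KO replicate 1. The count lower moved as far, to 493 and 599 on leaving out WT replicate 2 and 3 in turn, and to 511, 583 and 612 on leaving out KO replicate 1, 2 and 3 in turn. The count lower was 556 with no intensity filter and 524 once heat-shock expression was added to the fit. The settings that test more probe sets adjust over more features, and those with fewer arrays have fewer samples; otherwise the cause was not tested. No guidance gene's called difference changed sign. The calls of Plxnd1 and Sema7a ended over all probe sets (adjusted p = 0.0510 and 0.0691) and without either pair of arrays, and that of Plxna1 ended without KO replicates 1 and 2 (adjusted p = 0.0547). The median difference of all tested genes was -0.03, and -0.06 with each array centred on its median. No paired analysis was possible because the sample labels carry no replicate numbers, and those used here pair no samples. Single KO arrays under the intensity filter limit Plxnb2 (2 arrays) and Robo1 (1 array).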
